A study of Homo sapiens with 12 samples.

Results

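The 10 genes described here encode cyclooxygenase-2 (PTGS2), the CXC chemokines CXCL8, CXCL1, CXCL2 and CXCL3, and the interleukins and interleukin-like cytokines IL6, LIF, IL1A, IL1B and IL11. They were chosen by name out of the 36601 genes measured, and they were picked on earlier results of these libraries, among them the values of cells given FK866 alone against vehicle. For these 10 genes the difference between FK866 and vehicle, the interaction that contains it, and the comparison of Met+FK with FK are therefore described below without a test. Tests of FK866 against vehicle are given only for genes outside the 10, from lists that were also written with earlier results known. Metformin, alone or with FK866, was compared with the same vehicle libraries. For the 10 genes those p-values are therefore not independent of how the genes were picked. KP4 is an established human line of pancreatic ductal carcinoma, with a genotype labelled WT. For 24 h the cells received DMSO as vehicle (DMSO), 10 mM metformin (Met), 5 nM FK866 (FK) or 10 mM metformin with 5 nM FK866 (Met+FK), with 3 libraries per treatment and 12 in all. Metformin acts on the respiratory chain by blocking its complex I, and FK866 blocks NAMPT, an enzyme that rebuilds NAD from nicotinamide. All values come from 1 cell line at 1 time point, so the labels give no other line or time against which to set them.

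PTGS2 is the inducible enzyme that converts arachidonic acid to the precursor of the prostaglandins. CXCL8 and its relatives CXCL1, CXCL2 and CXCL3 attract neutrophils through the receptors CXCR1 and CXCR2. IL-6, LIF and IL-11 signal through the shared receptor chain gp130 (IL6ST), whereas IL-1 alpha and IL-1 beta bind IL1R1 and activate NF-kappaB. Such genes are known as rapidly induced genes of inflammation and stress. Their promoters are bound by factors such as NF-kappaB, AP-1, CREB and C/EBP proteins, and their messenger RNAs are often short-lived because of AU-rich elements in the 3′ untranslated region. In pancreatic tumors, CXC chemokines, IL-6, LIF and the IL-1 cytokines are studied as signals between tumor cells, fibroblasts and neutrophils.

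The libraries held between 30667735 and 41052203 read pairs (median 34767231). Values are gene counts divided by the DESeq2 size factor of the library, here called normalized counts. Testing required 10 or more normalized counts as the mean over the 12 libraries, and 9 of the 10 genes and 15376 genes in all met this. IL6, with a mean of 6.82, did not. The label of the line was only partly borne out by marker genes. Of 12 markers of pancreatic ductal epithelium, 8 reached a mean of 10, among them KRT18 (13174 normalized counts), SOX9 (4320) and KRT8 (2728). EPCAM stayed at 8.93, and CFTR was at 0 in every library. Of 12 mesenchymal and fibroblast markers, 7 reached a mean of 10, among them VIM (103576) and CDH2 (3209). DCN was at 0 in every library, and COL1A2, LUM, THY1 and FAP averaged 0.419, 0.303, 1.78 and 0.233. Of 14 leukocyte and endothelial markers, 4 reached a mean of 10, the highest being CD68 (829) and PTPRC (196). The summed level of the 14 ran from 1200.0 to 1333 in DMSO and 1027 to 1110.3 in FK. It ran from 977 to 1018 in Met and 1008 to 1049 in Met+FK, so it was highest in DMSO. The summed ductal markers ranged from 25359 to 26287 in DMSO and from 19419 to 22907 in FK. They ranged from 16543 to 19736 in Met and from 16275 to 19708 in Met+FK. Most of this sum was KRT18, with means of 18307 in DMSO and 10421 in Met. Over the 8 tested ductal markers the median log2 fold change in Met against DMSO was -0.11, with KRT19 also lower and CDH1 higher. The summed mesenchymal markers ranged from 116119 to 126053 in DMSO and from 102956 to 113410 in FK. In Met they ranged from 98629 to 103709 and in Met+FK from 100497 to 108617. The part of these marker genes in the results below was not tested.

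The members lie on 6 chromosomes in GRCh38. PTGS2 lies at chr1:186671791-186680423 (minus strand), IL1A at chr2:112773915-112784590 (minus) and IL1B at chr2:112829751-112836816 (minus). IL6 lies at chr7:22725884-22732002 (plus), IL11 at chr19:55364382-55370463 (minus) and LIF at chr22:30240453-30246759 (minus). The 4 chemokine genes share 1 cluster on chromosome 4, in the order CXCL8 (chr4:73740541-73743716, plus), CXCL1 (chr4:73869393-73871308, plus), CXCL3 (chr4:74036589-74038807, minus) and CXCL2 (chr4:74097040-74099196, minus). Of the 10 genes, 2 overlap other genes of the table. IL6 overlaps STEAP1B and AC073072.1, and LIF overlaps LIF-AS1 and AC004264.1, all on the opposite strand. The overlapping genes of LIF stayed at means of at most 24.4 normalized counts in any treatment, against at least 1990.4 for LIF. STEAP1B averaged between 3.74 and 7.87 normalized counts per treatment, as low as IL6 itself (3.42 to 13.8), so without a known strand setting their reads cannot be told apart.

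The proximal promoters were searched for a few short patterns, and those of the chemokine genes were compared with each other in sequence. Of the 10 genes, 9 had an entry among the RefSeq promoters (GRCh38.p14). LIF was not among them. The 250 bases before the transcription start are printed 5′ to 3′ on the strand of the gene for the 5 genes that the comparisons below turn on most, with capitals at the NF-kappaB decamer, the AP-1 site TGANTCA, the core CGTCA of the cAMP response element and the TATA box TATAAA, searched on both strands. The windows are PTGS2 at chr1:186680424-186680673, CXCL8 at chr4:73740319-73740568, CXCL1 at chr4:73869143-73869392, CXCL2 at chr4:74099196-74099445 and IL11 at chr19:55370464-55370713.
PTGS2: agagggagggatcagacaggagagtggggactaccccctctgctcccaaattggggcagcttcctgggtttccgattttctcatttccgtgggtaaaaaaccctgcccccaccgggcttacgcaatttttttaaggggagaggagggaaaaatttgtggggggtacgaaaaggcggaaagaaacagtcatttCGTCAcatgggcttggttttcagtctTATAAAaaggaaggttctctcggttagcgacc
CXCL8: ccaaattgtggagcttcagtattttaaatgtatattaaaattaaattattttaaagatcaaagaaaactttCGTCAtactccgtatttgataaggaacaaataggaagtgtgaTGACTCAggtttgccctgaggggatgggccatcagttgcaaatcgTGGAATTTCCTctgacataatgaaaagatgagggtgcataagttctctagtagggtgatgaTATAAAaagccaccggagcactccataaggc
CXCL1: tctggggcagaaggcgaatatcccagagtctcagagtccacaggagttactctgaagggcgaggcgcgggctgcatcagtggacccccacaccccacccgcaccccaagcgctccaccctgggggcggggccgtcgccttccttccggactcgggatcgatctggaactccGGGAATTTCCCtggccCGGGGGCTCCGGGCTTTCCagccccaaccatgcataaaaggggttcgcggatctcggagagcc
CXCL2: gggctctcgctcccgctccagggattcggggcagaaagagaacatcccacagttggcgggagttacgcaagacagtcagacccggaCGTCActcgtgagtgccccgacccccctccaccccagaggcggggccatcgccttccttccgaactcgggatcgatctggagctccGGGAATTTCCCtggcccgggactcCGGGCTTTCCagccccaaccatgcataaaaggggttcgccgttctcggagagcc
IL11: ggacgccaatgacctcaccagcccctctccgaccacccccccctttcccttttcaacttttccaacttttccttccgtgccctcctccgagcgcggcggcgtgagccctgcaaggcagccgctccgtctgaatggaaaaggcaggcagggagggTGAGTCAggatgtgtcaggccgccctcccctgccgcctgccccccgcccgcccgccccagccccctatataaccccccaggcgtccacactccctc

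The NF-kappaB decamer was found in 5 of the 9 promoters (CXCL8, CXCL1, CXCL2, CXCL3 and IL6), and in 27.7% of all 27305 promoters of the same length. Matches of the decamer on the plus and minus strands overlap each other where a longer run is in capitals. CGTCA was found in 6 of 9 (PTGS2, CXCL8, CXCL2, CXCL3, IL6 and IL1A) and in 21.7% of all promoters. CXCL1 did not hold it, although its window was 81.42% identical to that of CXCL2 and 86.78% identical to that of CXCL3 over the aligned bases. TGANTCA was found in CXCL8, IL1A and IL11 (6.6% of all promoters). TATAAA was found in PTGS2, CXCL8 and IL1A (11.1% of all promoters). The full cAMP response element TGACGTCA, which contains the CGTCA core, and the C/EBP-ATF composite site TGATGNAA were found in 0 of the 9, against 1.77% and 3.19% of all promoters. These matches describe letters in the windows and do not show binding. A window without a match, as that of PTGS2 for the NF-kappaB decamer, may still hold a site that departs from the pattern searched.

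PTGS2 was higher in every treated library than in any DMSO library. Its normalized counts were 344, 343 and 371 in DMSO, 1269, 1842 and 1199.55 in FK, 945, 1019.5 and 794 in Met, and 1569, 1683 and 1257 in Met+FK. The FK and Met+FK libraries overlapped, and the Met libraries lay between them and DMSO. The mean rose from 353 ± 16.2 (SD, n = 3) in DMSO to 919.6 ± 115 in Met, or by 1.37 on the log2 scale (SE 0.15; limma, adjusted p = 4.52e-06). In Met+FK it was 1503 ± 221, which was 2.08 above DMSO on that scale (SE 0.15; limma, adjusted p = 5.59e-08). These comparisons use the DMSO libraries, on which the gene was also picked, so their p-values are not independent of that choice. Since RNA was taken from whole cultures, more cells expressing PTGS2 cannot be told apart from more RNA per cell, here and for the other genes.

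CXCL8 followed a similar order. Its normalized counts were 957, 1328 and 911 in DMSO, 3456, 4800.3 and 2654 in FK, 1943, 1832 and 1602 in Met, and 3096, 3154 and 2724 in Met+FK. No treated library overlapped DMSO, and the range of the Met+FK libraries lay within that of FK. The log2 fold change was 0.77 in Met (SE 0.18; limma, adjusted p = 0.0022) and 1.51 in Met+FK (SE 0.18; limma, adjusted p = 6.31e-06) against DMSO. Once the dependence on transcript GC and length had been taken out of each library by a loess fit (the GC trend below), the value for Met was 0.52 and fell below the 1.5-fold threshold. CXCL8 has 32.9% GC in its transcript and PTGS2 36.8%, against a median of 48.5% over the tested genes.

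**Figure D1:**
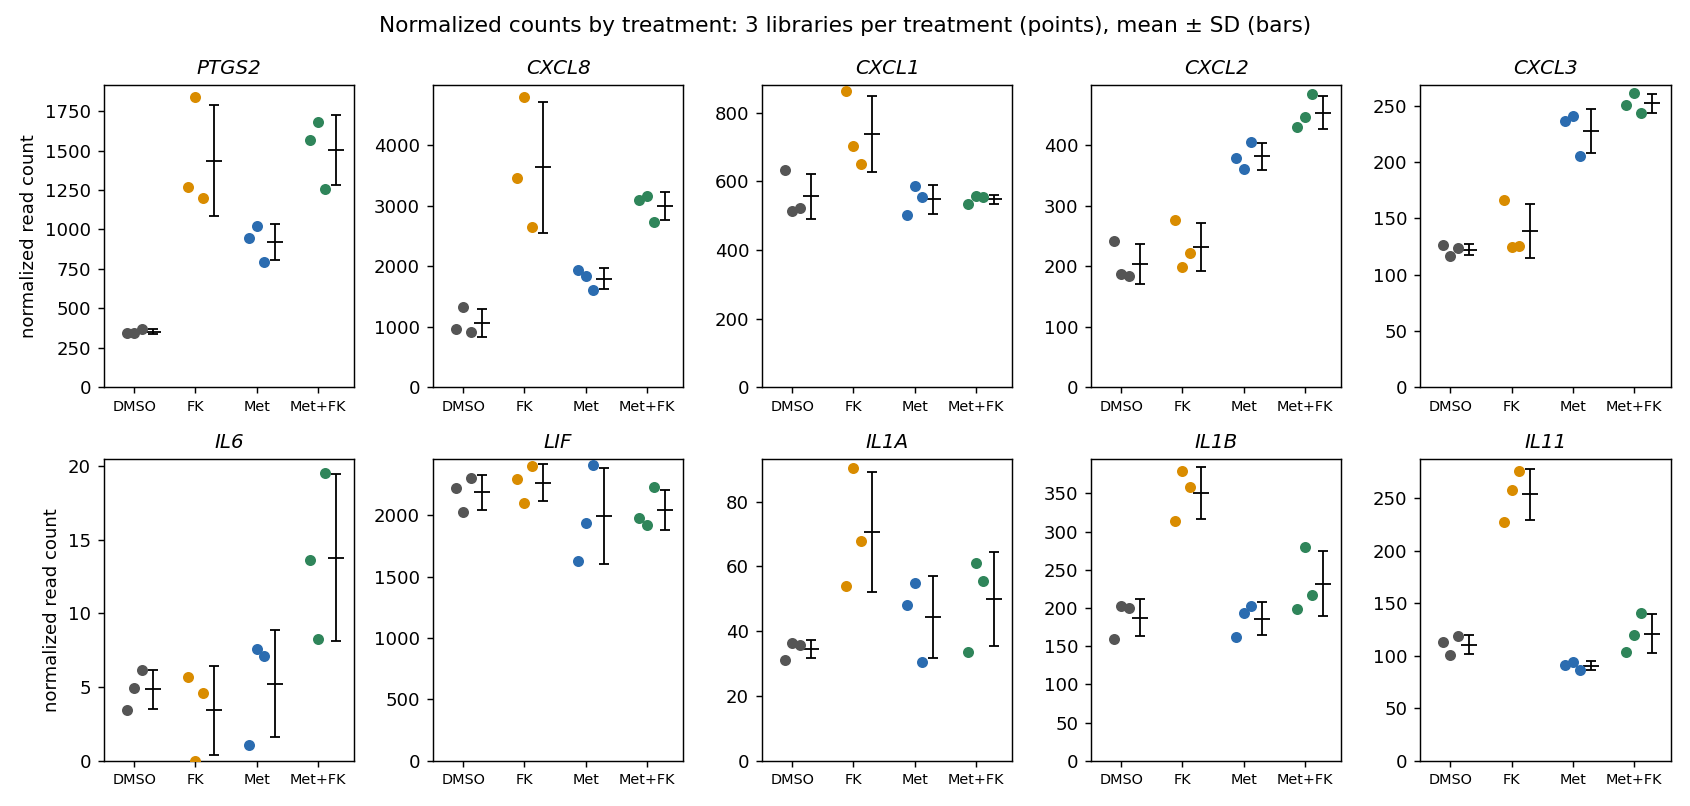
Normalized read counts (vertical axes, each starting at 0) of the 10 genes in the 4 treatments (horizontal axes), with a point per library and bars for the mean ± SD of 3 libraries. PTGS2 and CXCL8 were above DMSO in all treated libraries, CXCL2 and CXCL3 were high in Met and Met+FK, and IL1B and IL11 were highest in FK.

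Only the comparison of Met+FK with Met shares no library with FK against DMSO, and it asks what FK866 added to cells already given metformin. The genes were picked on earlier results of these libraries, so for the members its p-values and counts are not independent of that choice either. For this comparison 9 of 15376 genes were called (0.0585%), and 0 of the 9 tested members were among them. To be called, a gene had to change more than 1.5-fold at an adjusted p below 0.05. At an unadjusted p under 0.05 there were 1051 genes (6.84%), among them PTGS2, CXCL8 and IL11. FK866 on top of metformin was accompanied by a 1.63-fold higher PTGS2 level, with a log2 difference of 0.70 (95% interval 0.38 to 1.03; limma, unadjusted p = 0.000298, adjusted p = 0.0996). CXCL8 was 1.67-fold higher, with a log2 difference of 0.74 (95% interval 0.36 to 1.12; limma, unadjusted p = 0.000782, adjusted p = 0.204). Neither passed the threshold.

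In each of the 3 same-numbered pairs of libraries, the Met+FK library held more PTGS2 and more CXCL8 than the Met library. The 2 groups did not overlap for either gene, so any other pairing would give the same direction. The ratio was 1.66, 1.65 and 1.58 for PTGS2 and 1.59, 1.72 and 1.70 for CXCL8. With a block for the replicate number, both passed, with adjusted p = 0.00563 for PTGS2 and 0.00333 for CXCL8 (limma), and 25 genes were called in all (0.163%). DESeq2 on the recovered read pairs also called both (adjusted p = 0.0031 and 0.0115), with 0.13% of all genes called, as did the limma fit to only the 6 libraries compared (adjusted p = 0.0137 and 0.00179; 0.117% of genes). Both were also called with the GC trend removed (0.111% of genes), and with that removal and the block (0.202%). The quasi-likelihood test of edgeR gave adjusted p = 0.121 and 0.225. The size of the difference ran from 0.70 to 0.77 for PTGS2 and from 0.73 to 0.79 for CXCL8 over these fits, on the log2 scale.

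Of the other members, IL11 exceeded its Met level in Met+FK by 0.41 on the log2 scale (95% interval 0.11 to 0.70; limma, adjusted p = 0.515). IL1B differed by 0.31 (interval -0.01 to 0.62), CXCL2 by 0.25 (-0.04 to 0.54), IL1A by 0.16 (-0.40 to 0.73) and CXCL3 by 0.15 (-0.12 to 0.42). LIF and CXCL1 differed by 0.05 (-0.20 to 0.30) and 0.00 (-0.24 to 0.25). All 9 values were at or above 0, with a median of 0.25 against 0.01 over all genes tested. The groups did not overlap for 5 of the 9 (PTGS2, CXCL8, CXCL2, CXCL3 and IL11), against 13.4% of all genes.

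FK866 alone against DMSO is the contrast on which the genes were picked. PTGS2 was 3.99-fold higher in FK, with a log2 difference of 1.997 (SE 0.15), and CXCL8 3.36-fold, with 1.75 (SE 0.18). IL11 differed by 1.19 (SE 0.14), IL1A by 0.98 (SE 0.27) and IL1B by 0.90 (SE 0.15). CXCL1 followed with 0.40 (SE 0.11), and CXCL2, CXCL3 and LIF were at 0.18, 0.17 and 0.05. In all, 5 of 9 were past both thresholds as higher and 0 as lower, beside 2.73% and 0.754% of all genes, and the groups did not overlap for 6, beside 38.8%. Nothing is read from these counts. The slope of the log2 values on the GC content of the gene lay between -0.484 and -0.236 per 10% GC in the FK libraries and between -0.196 and -0.0427 in the DMSO libraries. With the GC trend removed, the difference was 1.61 for PTGS2, 1.39 for CXCL8, 1.40 for IL11 and 0.24 for LIF.

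**Figure D2:**
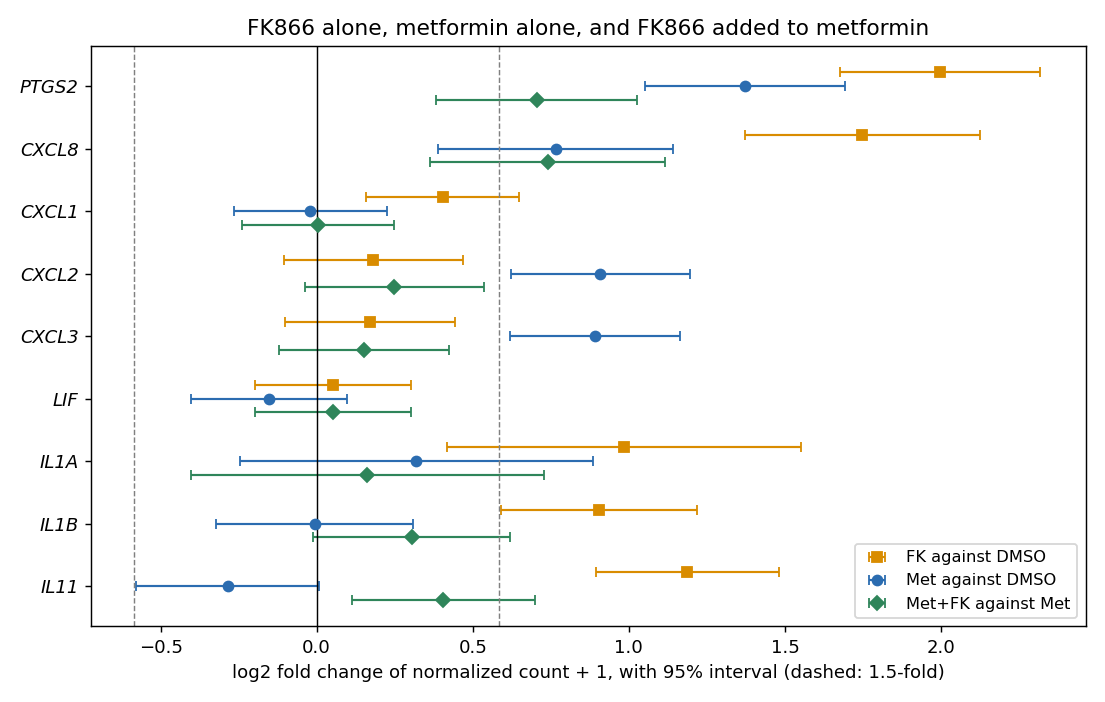
Log2 fold changes (horizontal axis, normalized count + 1) with 95% intervals for the 9 tested genes (vertical axis) in FK against DMSO (squares, on which the genes were picked), Met against DMSO (circles) and Met+FK against Met (diamonds), with dashed lines at 1.5-fold. FK866 gave 1.997 for PTGS2 without metformin and 0.70 with it. Of the comparisons drawn, CXCL2 and CXCL3 had their largest value, 0.91 and 0.89, in Met against DMSO.

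CXCL1, CXCL2 and CXCL3 encode closely related chemokines. CXCL2 and CXCL3 were high where metformin was given, whereas CXCL1 had its highest values in FK. CXCL2 had normalized counts of 242, 186 and 184 in DMSO, 276, 199 and 222 in FK, 379, 361 and 405 in Met, and 431, 447 and 484 in Met+FK. CXCL3 had 126, 116 and 124 in DMSO, 166, 125 and 125 in FK, 236, 241 and 205 in Met, and 251, 261 and 244 in Met+FK. For both genes the libraries with metformin lay above all libraries without it. CXCL1 had 632, 514 and 523 in DMSO, 863, 702 and 651 in FK, 503, 586 and 554 in Met, and 533, 557 and 555 in Met+FK, so its FK libraries lay above all others and the Met and Met+FK libraries overlapped DMSO.

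Against DMSO, Met raised CXCL2 by 0.91 (SE 0.13; limma, adjusted p = 6.62e-05) and CXCL3 by 0.89 (SE 0.13; limma, adjusted p = 5.15e-05) on the log2 scale, which is 1.88-fold and 1.85-fold. In Met+FK the values against DMSO were 1.16 (limma, adjusted p = 5.71e-06) and 1.04 (limma, adjusted p = 9.99e-06). CXCL1 differed from DMSO by -0.02 in Met (95% interval -0.26 to 0.22) and by -0.02 in Met+FK (-0.26 to 0.23), a sign that turned with the scaling of the libraries. Over the 9 tested members, 4 were called higher in Met (PTGS2, CXCL8, CXCL2 and CXCL3) and 0 lower, beside 12.8% and 10.2% of all genes. The same 4 were called higher in Met+FK against DMSO and 0 lower, beside 13.7% and 11.3%. Both counts rest on the DMSO libraries that also served to pick the genes.

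Between Met+FK and FK the members lay in both directions. This comparison uses the FK libraries on which the genes were picked, so its values are a description. On the log2 scale CXCL2 was 0.98 higher in Met+FK (SE 0.13) and CXCL3 0.87 higher (SE 0.13). IL11 stood at -1.07 (SE 0.14), IL1B at -0.61 (SE 0.15), IL1A at -0.50 (SE 0.27) and CXCL1 at -0.42 (SE 0.11). PTGS2 differed by 0.08 (95% interval -0.24 to 0.40), CXCL8 by -0.24 (-0.62 to 0.13) and LIF by -0.15 (-0.40 to 0.10). In all, 2 of 9 were past both thresholds as higher and 2 as lower, beside 9.27% and 9.29% of all genes, and nothing is read from these counts.

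The coding sequences of CXCL1, CXCL2 and CXCL3 are between 90.74% and 94.44% identical over 324 bases. However, 0 of the 100-base windows of one canonical transcript occurred in another, and 100 bases is the read length, so every full-length read from these transcripts carries at least 1 difference. How reads that fit more than 1 of them were counted is not given in the sources used here. The cluster from CXCL8 to CXCL2 spans 358656 bases and holds 11 genes of the table, of which 5 were tested. The only tested gene there outside the 10 was CXCL5, another neutrophil chemokine, which was named here after its values were seen. It stood at 245 ± 26.3 in DMSO, 322 ± 34.7 in FK, 285 ± 30.2 in Met and 268 ± 35.8 in Met+FK (SD, n = 3). Its log2 differences were 0.39 in FK and 0.22 in Met against DMSO, and it was called in neither. The other 6 genes between CXCL8 and CXCL2 averaged at most 2.998 normalized counts.

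IL11 and IL1B had their highest values in FK. IL11, a gp130 cytokine, had 113, 100.5 and 119 normalized counts in DMSO, 227, 258 and 275 in FK, 90.9, 94.5 and 86.2 in Met, and 103, 119 and 140.5 in Met+FK. All FK libraries lay above all others, and all Met libraries lay below all others. In Met against DMSO its log2 difference was -0.29 (95% interval -0.58 to 0.01; limma, adjusted p = 0.0947), which did not pass. IL1B had 159, 203 and 199 in DMSO, 313, 379.5 and 358 in FK, 162, 194 and 203 in Met, and 199, 280.0 and 217 in Met+FK. Its FK libraries lay above all others, while those of the other treatments overlapped. In Met against DMSO it differed by -0.01 (-0.32 to 0.31), a sign that turned with the scaling of the libraries.

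IL1A was measured at low counts, with 27 to 102 read pairs per library. Its normalized counts were 31.2, 36.5 and 35.8 in DMSO, 53.8, 90.2 and 67.7 in FK, 48.1, 54.8 and 30.4 in Met, and 33.4, 61.0 and 55.6 in Met+FK. Only FK stood apart from DMSO. The log2 difference from DMSO was 0.32 in Met (95% interval -0.25 to 0.88) and 0.48 in Met+FK (-0.08 to 1.05; limma, adjusted p = 0.141), and neither was called. Without Met+FK replicate 1, the lowest of its group, the latter was 0.74 and was called (limma, adjusted p = 0.0334).

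LIF overlapped between all treatments. Its normalized counts were 2226, 2029.65 and 2305 in DMSO, 2298, 2099 and 2401 in FK, 1632, 1933 and 2407 in Met, and 1978, 1924 and 2231 in Met+FK. The largest spread was within Met (1990.4 ± 391, SD, n = 3). Its log2 difference from DMSO was -0.15 in Met (95% interval -0.40 to 0.10) and -0.10 in Met+FK (-0.35 to 0.15). IL6 was near the limit of detection, with 3, 5 and 6 read pairs in DMSO, 6, 0 and 4 in FK, 1, 8 and 7 in Met, and 13, 10 and 20 in Met+FK. The 0 in FK replicate 2 allows up to 2.65 normalized counts, counting error only. The Met+FK libraries lay above all others by read pairs. IL6 was also fitted with all genes kept that had any value above 0. There Met+FK differed by 1.43 from Met (limma, adjusted p = 0.818) and by 1.29 from DMSO (limma, adjusted p = 0.185), and neither passed. Against FK the difference was 2.07 (SE 0.68), a description only, since the genes were picked on the FK libraries.

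The interaction, in which the FK866 effect in DMSO is subtracted from that in metformin, contains the contrast on which the genes were picked and is given as a description. It was -1.29 for PTGS2 (SE 0.21), -1.01 for CXCL8 (SE 0.25), -0.82 for IL1A (SE 0.38), -0.78 for IL11 (SE 0.19), -0.60 for IL1B (SE 0.21) and -0.40 for CXCL1 (SE 0.16). It was 0.07 for CXCL2, -0.02 for CXCL3 and 0.00 for LIF. In all, 7 of 9 values lay below 0, beside 48.7% of all genes, and nothing is read from this count. With the GC trend removed, PTGS2 was at -0.84, CXCL8 at -0.59 and IL11 at -1.03.

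Levels can be set side by side between genes only per length of transcript. In DMSO, CXCL8 stood at 649 normalized counts per kb of transcript, LIF at 565 and CXCL1 at 474, and neighbours in this order overlapped between libraries. Below them lay CXCL2 (183), IL1B (124), CXCL3 (113), PTGS2 (78.2), IL11 (46.6), IL1A (17.1) and IL6 (4.30), where only IL1B and CXCL3 overlapped as neighbours. In FK, CXCL8 reached 2215 per kb, and PTGS2 moved from rank 7 to rank 4 with 319. In Met, PTGS2 stood at 204 (rank 6) and CXCL3 at 212 (rank 5), and these 2 overlapped. In Met+FK, PTGS2 stood at 333 (rank 5). Over all 12 libraries CXCL8 lay at percentile 88.5 of the tested genes per kb, LIF at 71.7, CXCL1 at 70.1, CXCL2 at 56.5, PTGS2 at 52.1, CXCL3 at 45.9, IL1B at 44.3, IL11 at 29.5 and IL1A at 17.8.

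**Figure D3:**
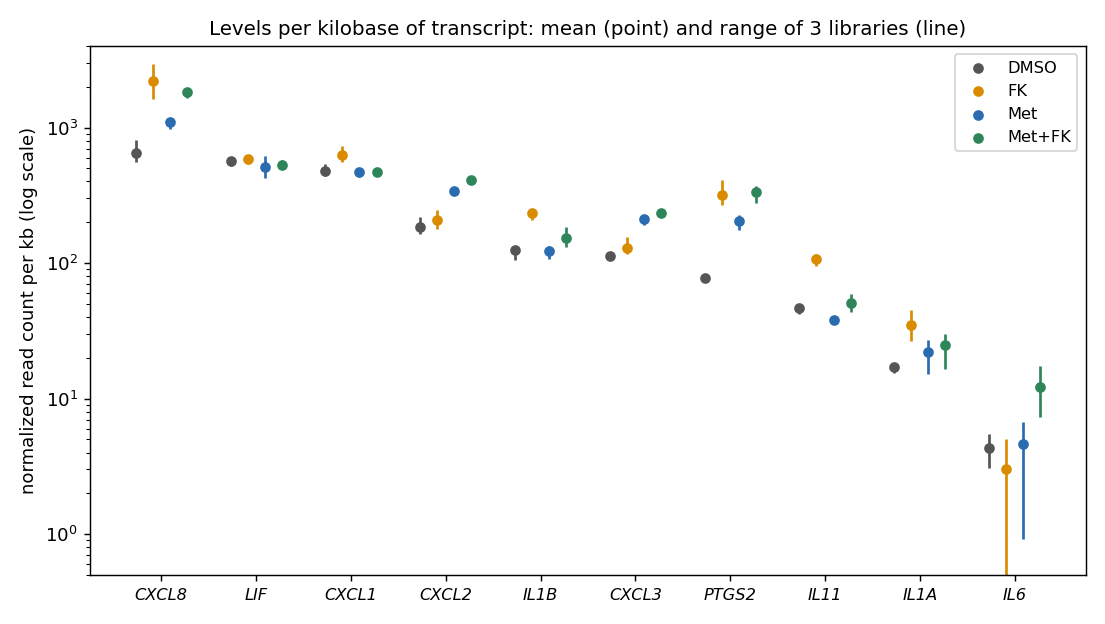
Normalized read counts per kb of canonical transcript (vertical axis, log scale) for the 10 genes (horizontal axis, ordered by their level in DMSO), with points for the mean and lines for the range of 3 libraries per treatment. CXCL8 was the highest in every treatment, from 649 in DMSO to 2215 in FK, and the IL6 line that reaches the lower edge holds the FK library with 0 reads.

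AU pentamers were dense in most of the 10 genes, counted as ATTTA in DNA letters over the 3′ untranslated region of the Ensembl canonical transcript from the stop codon on. PTGS2 had 22 in 2562 bases, or 8.59 per kb, and CXCL8 had 9 in 1252 bases, or 7.19 per kb. CXCL2 (14.0 per kb), CXCL3 (10.4), IL6 (14.1), IL1B (9.84), CXCL1 (7.77) and IL11 (5.54) were likewise high. LIF, with 7 pentamers in 3198 bases (2.19 per kb), and IL1A, with 4.38 per kb, were the lowest, at percentiles 58.7 and 87.4 of the tested genes. All 10 lay above the median of 1.70 per kb over 12774 tested genes with such a region, and their median was 8.18. The nonamer TTATTTATT, which contains the pentamer, was found in 8 of the 10 (not in IL6 or IL1A) and in 9.68% of the tested genes.

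**Figure D4:**
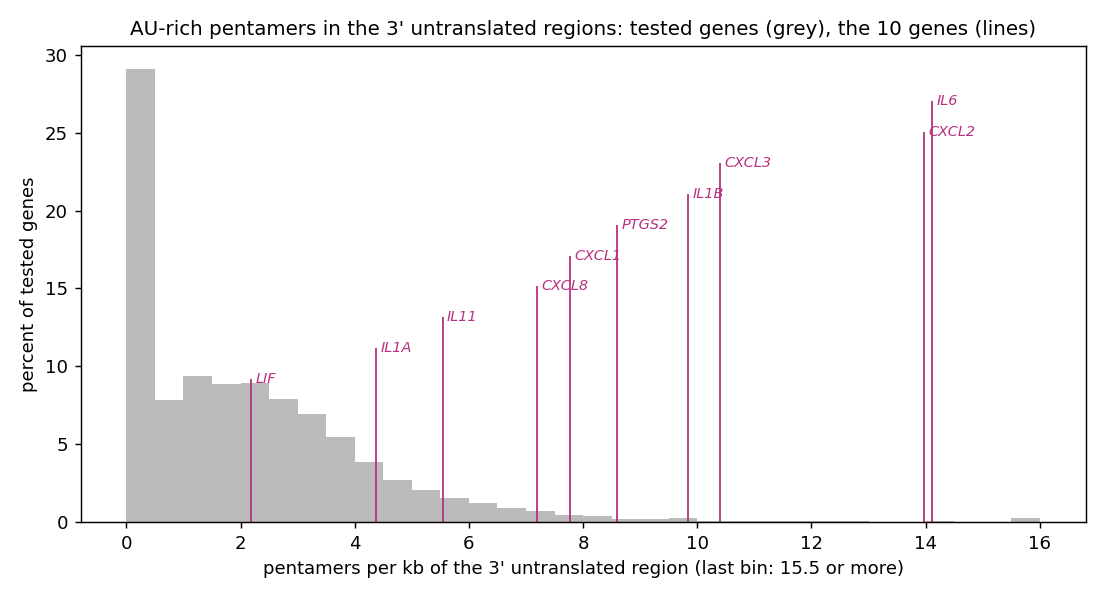
Density of AU-rich pentamers per kb of 3′ untranslated region (horizontal axis) as a percentage of 12774 tested genes per bin (grey bars, vertical axis), with a line and a name for each of the 10 genes, whose heights only separate the labels. All 10 lay above the median of 1.70 per kb, LIF the closest at 2.19 and IL6 the farthest at 14.1.

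The likeness of each gene's pattern to others was measured by the root mean square difference of centred log2 values over the 12 libraries. The most similar genes named below were sought among 11513 genes outside the members averaging 100 or more. The 50 nearest were taken from all tested genes, members included. The pattern most like PTGS2 was that of ARRDC3, an arrestin-domain protein (0.240 log2 units), followed by TPPP (0.288) and SIPA1L2 (0.331). ARRDC3 was also the most like CXCL8 (0.226), before ARRDC4 (0.253) and SIPA1L2 (0.270). ARRDC3 averaged 2096 normalized counts in DMSO, 6089 in FK, 4536 in Met and 6210.1 in Met+FK. CXCL8 was among the 50 nearest to PTGS2 and PTGS2 among the 50 nearest to CXCL8, as were CXCL2 and CXCL3 for each other, and IL1B was among the 50 nearest to IL11. CXCL1, LIF, IL1A and IL1B had 0 other members among their 50 nearest. The genes most like CXCL2 were CEBPB (0.121), a C/EBP transcription factor, GCC1 (0.123) and PGPEP1 (0.126), at nearly the same distance. The gene most like CXCL3 was GATAD1 (0.105). CEBPB had means of 1887 in DMSO, 1953 in FK, 3484 in Met and 3946 in Met+FK. A link between CEBPB and CXCL2 was not tested.

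Of 24 listed genes of prostaglandin synthesis, transport and reception, 12 were tested. In FK against DMSO 1 was higher and 0 lower, beside 2.73% and 0.754% of all genes (median 0.05, against -0.02 over all genes). It was PLA2G4A, the cytosolic phospholipase that releases arachidonic acid, which rose from 303 ± 46.8 to 654 ± 185 (SD, n = 3), a rise of 1.08 (limma, adjusted p = 0.0114), and which was not called without DMSO replicate 1 (0.98). Metformin gave 1 higher and 0 lower, beside 12.8% and 10.2% of all genes (median -0.27). It was PLA2G4C, a further phospholipase, with 72.9 ± 18.9 in DMSO and 141 ± 24.2 in Met (log2 fold change 0.95; limma, adjusted p = 0.00102). In Met+FK against Met 0 were called. PTGES, a synthase that forms prostaglandin E2, averaged 6.03 normalized counts over the 12 libraries, and PTGS1, the constitutive cyclooxygenase, 1.99. The other listed prostaglandin E synthases, PTGES2 and PTGES3, averaged 2682 and 19283.

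Of 12 further CXC chemokines only CXCL5 and CXCL16 were tested, and 0 were called in FK against DMSO, Met against DMSO or Met+FK against Met. The shares called over all genes were 3.49%, 23% and 0.0585%. At an unadjusted p under 0.05 there were 2, 0 and 0 of the 2 genes, and edgeR and DESeq2 called 0 as well. Of 9 CXC receptors 4 were tested and 0 were called in the same comparisons by limma, edgeR and DESeq2, with 1, 0 and 0 at an unadjusted p under 0.05. CXCR1 and CXCR2, the receptors of the chemokines described here, averaged 0.0871 and 2.27 normalized counts, near the limit of detection. Of 23 genes of IL-6 family signalling 18 were tested. Met against DMSO gave 1 higher and 5 lower, beside 12.8% and 10.2% of all genes (median -0.25). SOCS3, a feedback inhibitor of gp130 signalling, fell by 1.10 on the log2 scale, from 2172 to 1015 (limma, adjusted p = 5.35e-07). JAK2, the kinase, rose by 0.78 (limma, adjusted p = 0.0012) but was at 0.43 with the GC trend removed. In FK against DMSO LIFR, the LIF receptor, was the only call (0.59, adjusted p = 0.0372, limma), and it was at 0.12 with the GC trend removed. In Met+FK against Met 0 were called.

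Of 26 genes of the IL-1 family 17 were tested. In Met against DMSO 4 were higher and 1 lower, beside 12.8% and 10.2% of all genes (median 0.24). IL1RL1, the receptor of IL-33, rose from 12.996 ± 3.28 to 51.5 ± 4.58 (log2 fold change 1.93; limma, adjusted p = 3.84e-06), and IL1RAP, the shared accessory receptor, rose by 0.82 (limma, adjusted p = 5.62e-05), with 0.54 once the GC trend was removed. MYD88, the adaptor of IL-1 receptors, fell by 0.80 (limma, adjusted p = 4.22e-06). IL1RL1 was also the only call in FK against DMSO (0.69; limma, adjusted p = 0.0367), which was kept in 2 of 6 fits with 1 library left out and in 5 of 12 other alternatives, edgeR and DESeq2 not among them, and 0 were called in Met+FK against Met. Of 31 NF-kappaB subunits, inhibitors and targets 27 were tested, and 0 were called by limma, edgeR or DESeq2 in FK against DMSO (median -0.17) or in Met+FK against Met (median -0.04). At an unadjusted p under 0.05 there were 21 and 2 of them, beside 42.2% and 6.84% of all genes. The shares called by limma over all genes were 3.49% and 0.0585% in these comparisons. Metformin alone gave 2 higher and 3 lower, beside 12.8% and 10.2% of all genes (median 0.09). TNFAIP2, an NF-kappaB target, fell by 1.14 (limma, adjusted p = 3.30e-05), CCL2, a chemokine for monocytes, fell by 0.96 from 3965 to 2038 (limma, adjusted p = 5.99e-06), and BIRC3, an inhibitor of apoptosis, rose by 0.82 (limma, adjusted p = 0.028), which DESeq2 did not call and which was at 0.46 with the GC trend removed.

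Of the 16 listed C/EBP, AP-1 and CREB factors, ATF3, a stress-induced factor of the ATF family, stood at 635 ± 31.8 normalized counts in DMSO, 1603 ± 120 in FK, 3921 ± 120 in Met and 6194 ± 267 in Met+FK (SD, n = 3). Its log2 fold change was 1.33 in FK (limma, adjusted p = 3.91e-07) and 2.62 in Met (limma, adjusted p = 2.04e-11) against DMSO, and 0.66 in Met+FK against Met (limma, adjusted p = 0.00272). Besides ATF3, FOSB, an AP-1 subunit, rose in FK by 0.93 (limma, adjusted p = 0.00351). Thus 2 were higher and 0 lower there, beside 2.73% and 0.754% of all genes. In Met 5 were higher and 2 lower, beside 12.8% and 10.2% of all genes. Among them were CEBPG, a C/EBP partner, at 1.59 (limma, adjusted p = 9.61e-08), and FOS, which fell by 1.37 (limma, adjusted p = 5.38e-05). All 18 listed regulators of AU-rich and cytokine mRNA decay were tested. By limma, edgeR or DESeq2, 0 were called in FK against DMSO or in Met+FK against Met. In the latter DUSP1, named here after its value was seen, missed only the 1.5-fold threshold. It averaged 3085 in Met and 4520 in Met+FK (log2 fold change 0.56; limma, adjusted p = 0.0269). Over all genes limma called 3.49% and 0.0585%. At an unadjusted p under 0.05 there were 13 and 2 of them, beside 42.2% and 6.84% of all genes. In Met against DMSO 1 was higher and 2 lower, beside 12.8% and 10.2% of all genes. HNRNPD, which binds AU-rich elements and is also known as AUF1, fell by 0.95 (limma, adjusted p = 1.32e-07). KHSRP, a decay-promoting binding protein, fell by 0.69 (limma, adjusted p = 2.16e-05), but by 0.50 with the GC trend removed and by 0.57 with all libraries scaled to the same total. TTC37, a subunit of the Ski complex, rose by 0.86 (limma, adjusted p = 0.00678), with 0.58 once the GC trend was removed.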

How the data were processed

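RNA of KP4 cells was sequenced after ribosomal RNA depletion in 12 libraries, 3 per treatment. The authors used cutadapt for trimming, STAR for alignment to hg38 and featureCounts to count pairs on genes, and divided the counts by DESeq2 size factors. The deposited signal (normalized counts) gave whole read pairs on division by its smallest step for 100% of values (tolerance 0.01). The annotation and strand setting are not given in the sources used here, and no label says whether replicates were separate cultures, so p-values measure the spread between these samples.

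limma-trend (limma 3.58.1, R 4.3.3) was fitted to log2(normalized count + 1) with all 12 libraries and 1 mean per treatment, over the 15376 genes averaging 10 or more, with Benjamini-Hochberg adjustment per comparison. Fold changes are on that scale. The members and lists were chosen with earlier results of these data known. Named were the 10 members, at most 3 DEGs per list and comparison with the largest changes, and the nearest patterns. A gene that this rule picks is not reported here. GC content, 3′ untranslated regions and lengths were those of Ensembl canonical transcripts. Lists of ductal, mesenchymal, and leukocyte and endothelial markers were counted too. In FK against DMSO these had 0, 1 and 0 higher and 0 lower calls, in Met against DMSO 1, 1 and 0 higher and 2, 2 and 2 lower, and in Met+FK against Met 0. Over all genes the shares higher and lower were 2.73% and 0.754% in FK against DMSO. They were 12.8% and 10.2% in Met against DMSO, and 0.0585% were called in Met+FK against Met.

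Same-numbered libraries were checked for pairing by the correlation, across genes, of their deviations from group means. It was 0.252, 0.42 and 0.219 for DMSO with FK and 0.171, 0.2 and 0.226 for Met with Met+FK, all above 0.1, so these pairs count as paired, although only the values show it. The other group pairs did not pass, with a lowest value of 0.0129 for DMSO with Met, 0.0186 for DMSO with Met+FK and 0.0461 for FK with Met+FK, while the block spans all 4 groups. Alternatives were DESeq2 1.42.0 and the quasi-likelihood test of edgeR 4.0.16 on the whole read pairs, pseudocounts of 0.1 and 10, other filters on low values, TMM or equal totals as scaling, a loess (span 0.3) on GC content and length, the replicate block, fits to the compared libraries alone, no fold threshold, and leaving out single libraries.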

Additional observations from a re-analysis of the deposited data

Results flagged for a closer look

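The interaction of FK866 and metformin, across all 12 libraries, drew attention to 2 of the genes named. At an adjusted p under 0.05 it picked 9 of 15376 genes (0.0585%), and nothing is read from PTGS2 being among them. For PTGS2 the interaction was -1.29 on the log2 scale, from 1.997 without metformin to 0.70 with it, and -0.84 with the GC trend removed. It contains the contrast on which PTGS2 was picked, so the value is a description and a difference between the effects was not tested independently. For ATF3 the interaction was -0.673 on the log2 scale (SE 0.11; limma, adjusted p = 0.0407), from 1.33 without metformin to 0.66 with it. ATF3 was named for its changes in these same comparisons, from a list written with earlier results known. Its p-value is therefore not independent of that choice. Its means were 635, 1603, 3921 and 6194 normalized counts in DMSO, FK, Met and Met+FK.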

How the results depend on the processing

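Of the counts of members called, each comparison kept its count within 1.5 times under all alternatives except Met+FK against Met. There the count was 0 in the fit reported and 2 (PTGS2 and CXCL8) with only the 6 libraries compared, with the replicate block, with the GC and length trend removed, with that trend removed and the block, and with DESeq2. Over all alternatives the adjusted p ran from 0.0031 to 0.567 for PTGS2 and from 0.00129 to 0.68 for CXCL8. With 1 library left out, the log2 difference was 0.60 to 0.83 and 0.66 to 0.81. The replicate block alone changed no other call among the genes named.

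Signs turned only for members close to 0 that were not called. With libraries scaled to the same total, which moved the median of all genes by 0.121 in Met against DMSO, CXCL1 was at 0.102 in Met against DMSO, 0.0674 in Met+FK against DMSO and -0.0346 in Met+FK against Met, and IL1B at 0.115 in Met against DMSO. With TMM the values were 0.0128 and 0.0158 for CXCL1 in Met and Met+FK against DMSO and 0.0265 for IL1B in Met, and with edgeR 0.0112, 0.0115 and 0.0218. DESeq2 gave -0.0025 for CXCL1 in Met+FK against Met. With the GC trend removed, with or without the block, LIF was at 0.0306 in Met and 0.0422 in Met+FK, CXCL1 at 0.0103 in Met+FK and IL1B at 0.0054 in Met, all against DMSO. With 1 library left out, CXCL1 ran from -0.073 to 0.075 in Met against DMSO, from -0.0686 to 0.0803 in Met+FK against DMSO and from -0.0552 to 0.0549 in Met+FK against Met, and IL1B from -0.118 to 0.0905 in Met against DMSO. PTGS2 ran from -0.036 to 0.273 in Met+FK against FK, and in Met+FK against Met LIF ran from -0.0803 to 0.20 and IL1A from -0.0822 to 0.4235. The cause was not tested.

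Over all genes, the 536 calls of FK against DMSO became 112 with only the 6 libraries, 198 with the GC trend removed, 272 with the block as well and 3251 by adjusted p alone. The 9 of Met+FK against Met became 18, 17, 31 and 15, with 25 under the block alone and 20 with DESeq2. With 1 library left out, the calls of FK against DMSO were 94 without DMSO replicate 1, 1202 without DMSO replicate 2, 181 without DMSO replicate 3, 1153 without FK replicate 1 and 100 without FK replicate 2, and those of Met+FK against Met were 2 to 4 without each library except Met replicate 3 (9). By adjusted p alone there were 7823 calls in Met against DMSO, 8033 in Met+FK against DMSO and 6478 in Met+FK against FK. After removal of the GC trend the correlations for the pairing of Met with Met+FK were 0.16, 0.0954 and 0.0748. These no longer all exceeded 0.1, so by that measure the pairing did not pass. With 3 libraries per treatment and 0 to 20 read pairs per library, IL6 lay under the filter for testing.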
